A study of Homo sapiens with 6 samples.

Results

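The genes described here are 9 enzymes of deoxynucleotide and pyrimidine synthesis, RRM1, RRM2, TYMS, TK1, DTYMK, DUT, CAD, DHODH and UMPS, which were picked by gene symbol from the 26255 genes listed in the files, and all 9 were measured and tested. RNA-seq was performed on 22RV1 cells in RPMI 1640 with 10% FBS, which were exposed for 24 h to vehicle (DMSO, 3 samples) or to 10 nM bruceantin (BCT, 3 samples). 22RV1 is an established human castration-resistant prostate cancer (CRPC) line, and BCT is a natural quassinoid. The comparison asks which expression programs BCT regulates in these cells. It rests on a single cell line, a single dose and a single time, and since nothing says that the 3 samples of a group came from separate cultures, p-values measure only the spread between these samples.

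Cells make DNA precursors along a branched route. The de novo pyrimidine route builds UMP from small molecules through CAD, DHODH and UMPS. Ribonucleotide reductase, formed by RRM1 and RRM2, then turns ribonucleotides into deoxyribonucleotides, and DUT, TYMS, TK1 and DTYMK supply the thymidine branch. Several of these enzymes are classically made when cells enter S phase, and TYMS, ribonucleotide reductase and DHODH are targets of drugs in clinical use.

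BCT-treated cells had lower mRNA levels of the enzymes that make and guard deoxynucleotides, whereas no change was detected at either end of the UMP route. TK1 (4.44-fold), DUT (4.16-fold), RRM2 (3.24-fold), DHODH (2.98-fold), TYMS (2.76-fold) and RRM1 (2.63-fold) all fell by group means, and DTYMK was 1.7-fold lower but short of the fold change threshold. CAD and UMPS had BCT means at 97.0% and 98.3% of the DMSO means. Levels are FPKM, fragments normalised to transcript length and library size, and a gene was called when its log2 fold change of FPKM + 0.1 exceeded 0.85 in size with an adjusted p below 0.05 (limma, with Benjamini-Hochberg adjustment over 12729 genes, SE being the standard error of a log2 fold change). Of the 9 enzymes, 6 were called lower and 0 higher, where 17.8% of all tested genes were called lower and 13.9% higher. Their median log2 fold change was -1.47, beside -0.04 for all tested genes. In 7 of the 9 all BCT samples lay below all DMSO samples, which held for 44.3% of all tested genes.

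**Figure D1:**
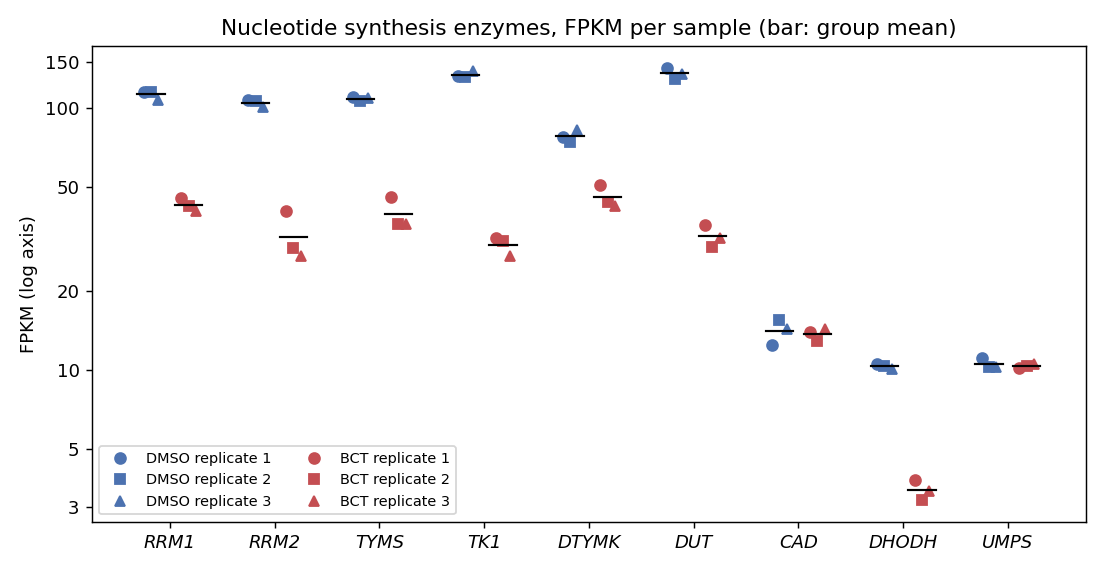
FPKM of each enzyme (log axis) in the 3 DMSO and the 3 BCT samples, with 1 marker shape per replicate number and a bar at each group mean. The BCT samples lie below the DMSO samples in 7 enzymes, and the groups overlap in CAD and UMPS.

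The files hold no read counts, so the reads behind a gene are unknown and no counting interval can be given. Ratios of very low FPKM values placed the relative depth at 0.878 to 1 in the DMSO libraries and at 1.05 to 1.13 in the BCT libraries, DMSO replicate 1 being set to 1. FPKM summed to 1169649 to 1572321 per sample with DMSO and 757534 to 799838 with BCT, and MIR6087 alone made up 43.5% to 55.3% and 31.7% to 32.5% of those sums. Of 8 luminal prostate markers, 7 exceeded 1 FPKM in all samples, the exception being KLK3 with a BCT mean of 1.05 FPKM, and their summed level was 859.0 to 866.5 FPKM with DMSO and 1833.2 to 2009.3 FPKM with BCT. Of 7 markers of other cell types, 4 stayed below 1 FPKM in every sample, while ALB, a liver marker, had a mean of 405.0 FPKM with DMSO and 61.7 FPKM with BCT, which held most of a summed level of 391.7 to 419.2 FPKM with DMSO and 68.8 to 80.3 FPKM with BCT. The other expressed markers of this list went the opposite way, COL1A1 from a mean of 1.43 to 5.83 FPKM and CD68 from 2.5 to 6.39 FPKM, and both were called higher. The part of these markers in the results was not tested.

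To let the regulatory sequence be read beside the values, 250 bases upstream of the RefSeq start are printed for TK1 (the largest fall), TYMS (the only enzyme of the 9 whose searched window held an E2F word) and UMPS (the smallest change). Sequences are from the RefSeq promoter table on GRCh38.p14, whereas the expression files use hg19. They come from chr17:78187205-78187454 on the minus strand, chr18:657403-657652 on the plus strand and chr3:124730202-124730451 on the plus strand. Capitals mark any of the words searched on both strands, and each line ends just before the start.
TK1: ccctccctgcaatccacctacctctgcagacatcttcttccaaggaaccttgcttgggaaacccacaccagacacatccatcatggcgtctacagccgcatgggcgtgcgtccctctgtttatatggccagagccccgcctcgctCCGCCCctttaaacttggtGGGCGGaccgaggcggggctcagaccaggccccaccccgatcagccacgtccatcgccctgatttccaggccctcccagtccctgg
TYMS: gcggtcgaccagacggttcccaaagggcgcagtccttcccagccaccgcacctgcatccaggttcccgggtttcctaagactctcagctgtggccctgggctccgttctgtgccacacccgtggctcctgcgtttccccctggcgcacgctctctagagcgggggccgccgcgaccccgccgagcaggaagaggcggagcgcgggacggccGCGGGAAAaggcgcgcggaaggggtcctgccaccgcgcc
UMPS: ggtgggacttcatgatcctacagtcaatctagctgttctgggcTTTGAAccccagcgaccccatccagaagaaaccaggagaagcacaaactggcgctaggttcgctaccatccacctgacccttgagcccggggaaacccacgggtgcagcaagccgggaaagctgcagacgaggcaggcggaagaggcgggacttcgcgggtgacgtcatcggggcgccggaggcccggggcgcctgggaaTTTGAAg

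The capitals in TK1 are GC boxes (GGGCGG), at 105 and 86 bases before the start. The capitals in TYMS, 39 bases before the start, are an E2F word (TTTCCCGC, TTTCGCGC, TTTGCCGC or TTTGGCGC), which is the type of site bound by the factors that drive S-phase genes. The capitals in UMPS are the CHR word TTTGAA, 207 and 7 bases before the start. In the most upstream 300-base window of each gene (250 bases before and 50 after the start), all 9 enzymes had a window, and an E2F word was present in 1 of them against 3.3% of 27305 windows. CCAAT was present in 5 of the 9 against 35.7% of all windows, GGGCGG in 6 against 44.5%, TTTGAA in 2 against 15.5% and CACGTG, the E-box read by MYC, in 1 (DHODH) against 7.4%. RRM2 and TK1 have 2 windows each and DUT has 4, and the downstream ones were not searched. These are letter matches and do not show binding.

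Ribonucleotide reductase fell in both subunits. RRM1 encodes the large subunit, which holds the catalytic and regulatory sites, and lies on chromosome 11 from 4115924 to 4160106 of hg19. RRM1 measured 115.0, 114.9 and 107.4 FPKM in the vehicle samples and 45.5, 42.1 and 40.4 FPKM under BCT. The groups were far apart relative to their spread, with means of 112.4 ± 4.38 and 42.7 ± 2.59 FPKM (SD, n = 3 each) and a difference of -1.40 on the log2 scale (SE 0.059, limma adjusted p = 6e-07). RRM2 encodes the small subunit with the radical needed for catalysis, which is normally restricted to cycling cells, and lies on chromosome 2 from 10262695 to 10271546. RRM2 measured 107.4, 106.3 and 100.5 FPKM in the vehicle samples and 40.5, 29.3 and 27.2 FPKM under BCT. BCT replicate 1 stood above the other BCT samples, and the change was -1.71 on the log2 scale (SE 0.13, limma adjusted p = 5.7e-06), or -1.89 without that sample.

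RRM2B, the alternative small subunit that p53 induces and that serves resting and damaged cells, did not share this fall. RRM2B had means of 13.5 ± 0.839 FPKM with DMSO and 15.9 ± 0.671 FPKM with BCT (SD, n = 3 each), and its log2 fold change of 0.23 passed the adjusted p (0.0085, limma) but not the fold change threshold. Within a sample, the FPKM ratio of RRM2B to RRM2 was 0.132, 0.131 and 0.125 with DMSO and 0.394, 0.521 and 0.609 with BCT. This ratio does not depend on how samples are scaled, and it differed by 1.95 on the log2 scale (exact two-sided permutation test, p = 0.1, the smallest that 3 against 3 samples allow). The ratio of RRM2 to RRM1 was 0.934, 0.925 and 0.937 with DMSO and 0.89, 0.695 and 0.674 with BCT, a difference of -0.32 on the log2 scale (exact permutation test, p = 0.1). The value of BCT replicate 1 lay just below the DMSO range, and those of the other BCT samples further down.

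**Figure D2:**
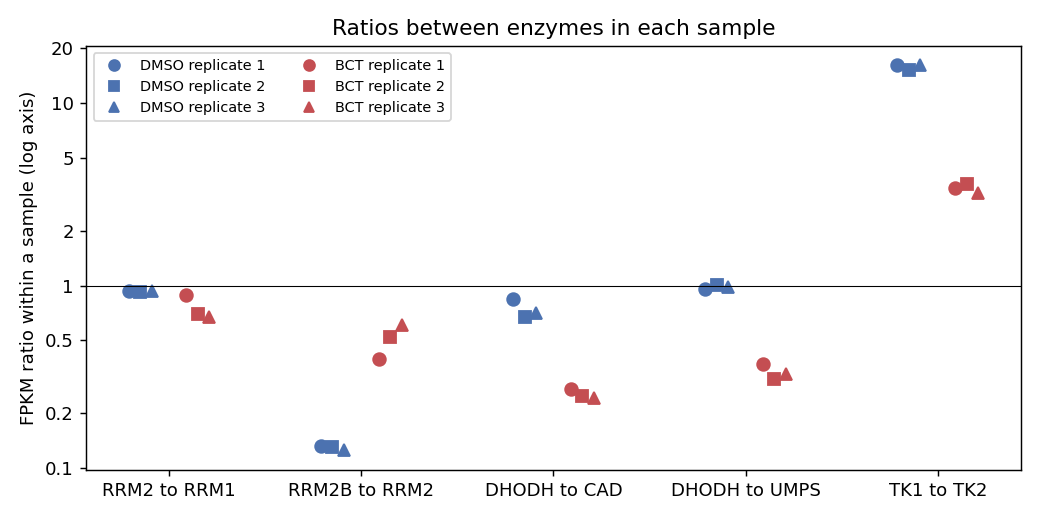
FPKM ratio of enzyme pairs within each sample (log axis) for the 3 DMSO and the 3 BCT samples. The groups do not overlap in any pair: TK1 to TK2 and DHODH to CAD or UMPS are lower with BCT, RRM2B to RRM2 is higher, and for RRM2 to RRM1 the BCT replicate 1 marker (0.89) lies close to the DMSO markers.

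Among the enzymes described here, the largest falls were those of TK1 and DUT, both in the thymidine branch. TK1, the cytosolic thymidine kinase that recovers thymidine in S phase, lies on chromosome 17 from 76170160 to 76183285. TK1 measured 131.6, 131.4 and 138.5 FPKM in the vehicle samples and 31.9, 31.2 and 27.3 FPKM under BCT. With means of 133.8 ± 4.04 and 30.1 ± 2.46 FPKM (SD, n = 3 each), TK1 fell by 2.15 on the log2 scale (SE 0.067, limma adjusted p = 2.4e-07), and 1.99% of all tested genes had a lower log2 fold change. DUT, which hydrolyses dUTP so that uracil is kept out of DNA and supplies dUMP for thymidylate synthesis, lies on chromosome 15 from 48623621 to 48635570. DUT measured 142.3, 128.7 and 134.7 FPKM in the vehicle samples and 35.9, 29.6 and 32.0 FPKM under BCT. Its log2 fold change was -2.06 (SE 0.076, limma adjusted p = 3.7e-07). The nuclear and mitochondrial forms of DUT come from a single gene and are not separated in these values. RRM2, TYMS and DUT also have processed pseudogene copies in GENCODE (RRM2P3, TYMSP1 and DUTP1 among them), and reads may have been split with these.

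TYMS, which methylates dUMP to dTMP, measured 109.8, 106.3 and 108.6 FPKM in the vehicle samples and 45.7, 36.0 and 36.1 FPKM under BCT. All BCT samples were below all DMSO samples, with a log2 fold change of -1.47 (SE 0.091, limma adjusted p = 2e-06). The files give TYMS a joint span with its neighbours CLUL1, ENOSF1 and TYMSOS, from 596998 to 712662 on chromosome 18. ENOSF1 and TYMSOS lie on the opposite strand, and the library kit used (TruSeq RNA v2) does not mark strand, so reads from the shared parts cannot be told apart. ENOSF1 had means of 24.8 ± 0.243 and 15.4 ± 0.153 FPKM (SD, n = 3 each), below the fold change threshold at -0.68, whereas TYMSOS passed it at -1.17, with means of 5.9 ± 0.99 and 2.59 ± 0.742 FPKM (adjusted p = 0.00052, limma). Both were far below TYMS in level, and CLUL1 was listed below 0.5 FPKM in all samples and was not tested.

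DTYMK, the kinase that turns dTMP from either TYMS or TK1 into dTDP, lies on chromosome 2 from 242615157 to 242626383. DTYMK measured 77.4, 73.8 and 82.3 FPKM in the vehicle samples and 51.0, 43.9 and 42.4 FPKM under BCT. The groups did not overlap and the adjusted p was 2.7e-05 (limma), but the log2 fold change of -0.77 was short of the threshold and its 95% interval, -0.95 to -0.59, contained it. After correction for GC content and transcript length the change was -0.43. TK2, the mitochondrial counterpart of TK1, had means of 8.48 ± 0.253 FPKM with DMSO and 8.82 ± 0.444 FPKM with BCT (SD, n = 3 each; adjusted p = 0.42, limma). The ratio of TK1 to TK2, a pair chosen after its values were seen, was 16.1, 15.2 and 16.1 with DMSO and 3.43, 3.58 and 3.23 with BCT.

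In the UMP route, the middle enzyme fell and the others did not pass the test. CAD, a protein that carries the opening steps of the route up to dihydroorotate, lies on chromosome 2 from 27440258 to 27466660. CAD measured 12.5, 15.5 and 14.4 FPKM in the vehicle samples and 14.0, 12.9 and 14.3 FPKM under BCT. The groups overlapped, and the log2 fold change was -0.04 with a 95% interval of -0.24 to 0.15 (adjusted p = 0.67, limma). DHODH, the enzyme of the inner mitochondrial membrane that oxidizes dihydroorotate to orotate, lies on chromosome 16 from 72042643 to 72059316. DHODH measured 10.6, 10.4 and 10.1 FPKM in the vehicle samples and 3.8, 3.2 and 3.45 FPKM under BCT. The means, 10.4 ± 0.239 and 3.48 ± 0.298 FPKM (SD, n = 3 each), gave a fall of 1.55 on the log2 scale (SE 0.075, limma adjusted p = 9.1e-07). UMPS, which converts orotate to UMP, lies on chromosome 3 from 124449213 to 124468119, a span that also holds MIR544B, listed at 0 in every sample. UMPS measured 11.1, 10.3 and 10.3 FPKM in the vehicle samples and 10.2, 10.4 and 10.6 FPKM under BCT. Its log2 fold change was -0.02 with a 95% interval of -0.15 to 0.10 (adjusted p = 0.7, limma).

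The contrast within the UMP route was also seen as ratios, a comparison chosen after the values were seen. The ratio of DHODH to CAD was 0.848, 0.672 and 0.704 with DMSO and 0.272, 0.249 and 0.242 with BCT. The ratio of DHODH to UMPS was 0.959, 1.01 and 0.98 with DMSO and 0.373, 0.307 and 0.326 with BCT. Neither overlapped between the groups, and their differences on the log2 scale were -1.54 and -1.56 (exact permutation test, p = 0.1 for each). Of the 5 ratios computed, all had this smallest possible p, and none can pass a threshold of 0.05 in this design.

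**Figure D3:**
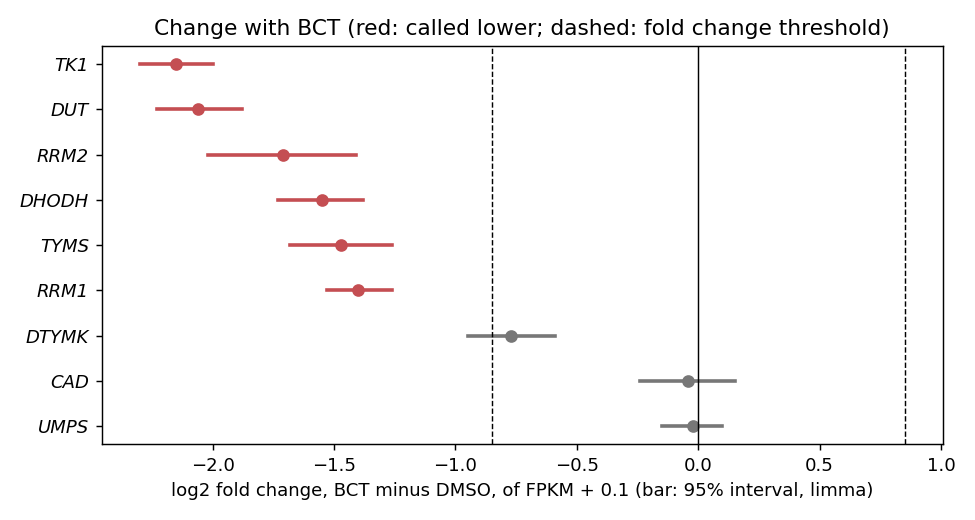
Log2 fold change (BCT minus DMSO) of FPKM + 0.1 for each enzyme with its 95% interval from limma, and dashed lines at the fold change threshold of 0.85. The 6 enzymes in red were called lower, the interval of DTYMK crosses the threshold, and those of CAD and UMPS hold 0.

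The order of the levels shifted with treatment. With DMSO, DUT (135.2 FPKM) and TK1 (133.8 FPKM) were highest and overlapped in range. RRM1, TYMS and RRM2 (112.4, 108.2 and 104.7 FPKM) followed, each overlapping the next, then DTYMK at 77.8 FPKM. CAD at 14.1 FPKM lay well below, and UMPS and DHODH at 10.6 and 10.4 FPKM overlapped. With BCT, DTYMK (45.8 FPKM) was highest, and RRM1 (42.7 FPKM) and TYMS (39.3 FPKM) followed, with ranges that overlapped between neighbours. DUT, RRM2 and TK1 came next at 32.5, 32.3 and 30.1 FPKM and overlapped, and DHODH at 3.48 FPKM was below UMPS in every sample. In 7 of the 9 enzymes, and in all 6 that were called, BCT replicate 1 was the highest of the BCT samples. That library also lay nearest to the DMSO samples over all genes, at 40.2 on the first principal component against 65.0 and 63.8 for the other BCT samples and -57.7 to -54.3 for DMSO, and its part in the spread was not tested.

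Other S-phase genes were mostly called lower as well. RRM1, RRM2 and TYMS are among the S-phase genes distributed with Seurat. Of the 39 other genes of that list that were tested, 33 were called lower and 0 higher, with a median log2 fold change of -1.65. Over all tested genes, 17.8% were called lower and 13.9% higher, with a median of -0.04. With equal FPKM sums, 21 of the 39 were called lower and 1 higher, beside 668 lower and 5609 higher of all 12729 tested genes. In bulk RNA, fewer cells in S phase and less RNA per cell cannot be told apart, and the part of the cell cycle in the falls above was not tested.

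Other genes of nucleotide metabolism were read from 5 lists, with 64 tested genes in all, of which 27 were called lower and 4 higher, where 17.8% of all tested genes were called lower and 13.9% higher. With equal FPKM sums, the balance turned to 9 lower and 16 higher, as it did over all tested genes (668 lower and 5609 higher). In the folate cycle that feeds TYMS, 4 of 8 genes were called lower and 1 higher, with a median of -1.10. The reduced folate carrier SLC19A1 fell from 12.0 ± 0.35 to 2.09 ± 0.993 FPKM, and SHMT1, which loads folate with its carbon unit, from 42.6 ± 1.31 to 10.2 ± 1.89 FPKM (SD, n = 3 each). SHMT1 shares its listed span with SMCR8 and MIR6778. SHMT2, the paralog of SHMT1, was named after its value was seen and was higher in level, with means of 354.9 ± 14.1 and 225.4 ± 18.6 FPKM. Its log2 fold change of -0.66 (adjusted p = 3.1e-05, limma) was short of the threshold, and it shares its listed span with NDUFA4L2.

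Of 13 purine synthesis genes, 7 were called lower and 0 higher, with a median of -0.86. PRPS2, which makes the activated ribose for both base classes, fell from 56.0 ± 1.94 to 15.3 ± 2.59 FPKM. Its paralog PRPS1, named after its value was seen, did not share this fall. PRPS1 had means of 46.9 ± 2.3 and 51.3 ± 3.28 FPKM with overlapping groups (log2 fold change 0.13, adjusted p = 0.09, limma). PAICS, a middle enzyme of the purine ring, fell from 172.7 ± 6.79 to 51.9 ± 8.33 FPKM, and IMPDH1, on the branch to GTP, fell from 84.8 ± 2.83 to 30.5 ± 5.03 FPKM (SD, n = 3 each). Its paralog IMPDH2, named after its value was seen, had means of 304.6 ± 15.5 and 412.1 ± 12.7 FPKM, a log2 fold change of 0.44 (adjusted p = 9.1e-05, limma) that was short of the threshold.

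Of 16 further genes of pyrimidine and deoxynucleotide synthesis, 5 were called lower and 0 higher, with a median of -0.59. GLRX, a glutaredoxin that can reduce ribonucleotide reductase, fell from 7.07 ± 0.588 to 2.28 ± 0.151 FPKM. CMPK2, a mitochondrial nucleotide kinase, had means of 2.8 ± 0.143 and 0.984 ± 0.285 FPKM, the latter just below the filter of 1 FPKM, which it passed through its DMSO samples. NME2, a nucleoside diphosphate kinase, fell from 1124.4 ± 44.3 to 441.0 ± 58.3 FPKM (SD, n = 3 each). NME2 shares its listed span with NME1 and their read-through gene, and reads may be split among them. CTPS1, which makes CTP from UTP, had means of 35.3 ± 0.833 and 26.4 ± 3.66 FPKM, a log2 fold change of -0.43 (adjusted p = 0.0023, limma) that was short of the threshold.

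Of 12 genes of salvage and uptake, 6 were called lower and 0 higher, with a median of -0.56. The nucleoside transporters SLC29A1 and SLC29A2 fell from 73.7 ± 0.881 to 12.6 ± 3.64 FPKM and from 33.3 ± 2.03 to 9.32 ± 2.16 FPKM. HPRT1, which salvages hypoxanthine and guanine, fell from 78.5 ± 3.45 to 26.2 ± 2.32 FPKM, and DCK, the deoxycytidine kinase that also activates nucleoside drugs, from 30.3 ± 0.512 to 11.6 ± 0.713 FPKM (SD, n = 3 each).

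Of 15 tested genes of breakdown and pool cleaning, 5 were called lower and 3 higher, with a median of 0.08, beside 17.8% and 13.9% of all tested genes called lower and higher and their median of -0.04. ADA, adenosine deaminase, had means of 1.23 and 0.318 FPKM, which is below the filter of 1 FPKM over all samples, and was not tested. NT5M, a mitochondrial nucleotidase, fell from 7.48 ± 0.285 to 2.33 ± 0.486 FPKM, and SAMHD1, which degrades dNTPs, from 12.1 ± 0.184 to 6.04 ± 0.48 FPKM (SD, n = 3 each). CDA, cytidine deaminase, had means of 0.757 ± 0.167 FPKM with DMSO and 2.25 ± 0.247 FPKM with BCT, and passed the filter only through its BCT samples, so that its call higher is no support for a rise. The others called higher, named after their values were seen, were uridine phosphorylase UPP1 (6.93 ± 0.329 to 16.0 ± 1.06 FPKM) and the nucleotidase NT5C (65.0 ± 0.945 to 124.7 ± 7.41 FPKM). SAMHD1 shares its listed span with TLDC2, and NT5C with ARMC7.

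**Figure D4:**
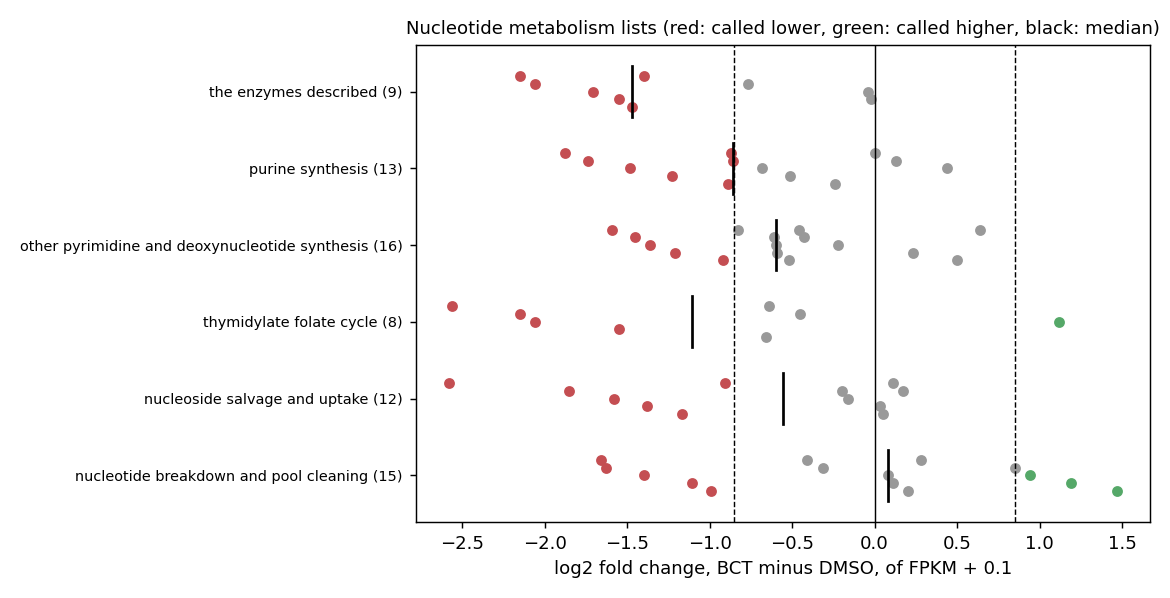
Log2 fold change (BCT minus DMSO) of FPKM + 0.1 for each tested gene of the 9 enzymes and of 5 further lists (number of genes in brackets), with a bar at each median and dashed lines at the threshold of 0.85. The medians run from -1.47 for the 9 enzymes to 0.08 for breakdown and pool cleaning.

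How the samples are scaled decides the absolute size of these changes. As deposited, all tested genes had a median change of -0.038 (log2). When each sample was rescaled to the same FPKM sum, this median was 0.72, and 3 of the 9 enzymes, RRM2 (-0.95), TK1 (-1.38) and DUT (-1.29), were called lower, where 5.25% of all tested genes were. RRM1 (-0.63), TYMS (-0.70) and DHODH (-0.80) then stayed lower but short of the fold change threshold, DTYMK was at 9.4e-05, and CAD (0.72) and UMPS (0.74) took positive values close to the median of all genes, which passed the adjusted p (1.4e-05 and 8.6e-06, limma) but not the fold change threshold. Relative to that median, the values under this scaling were -2.10 for TK1, -2.01 for DUT, -1.67 for RRM2, -1.52 for DHODH, -1.42 for TYMS, -1.35 for RRM1, -0.72 for DTYMK, 0.00 for CAD and 0.02 for UMPS. FPKM values alone do not tell which scaling is right.

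**Figure D5:**
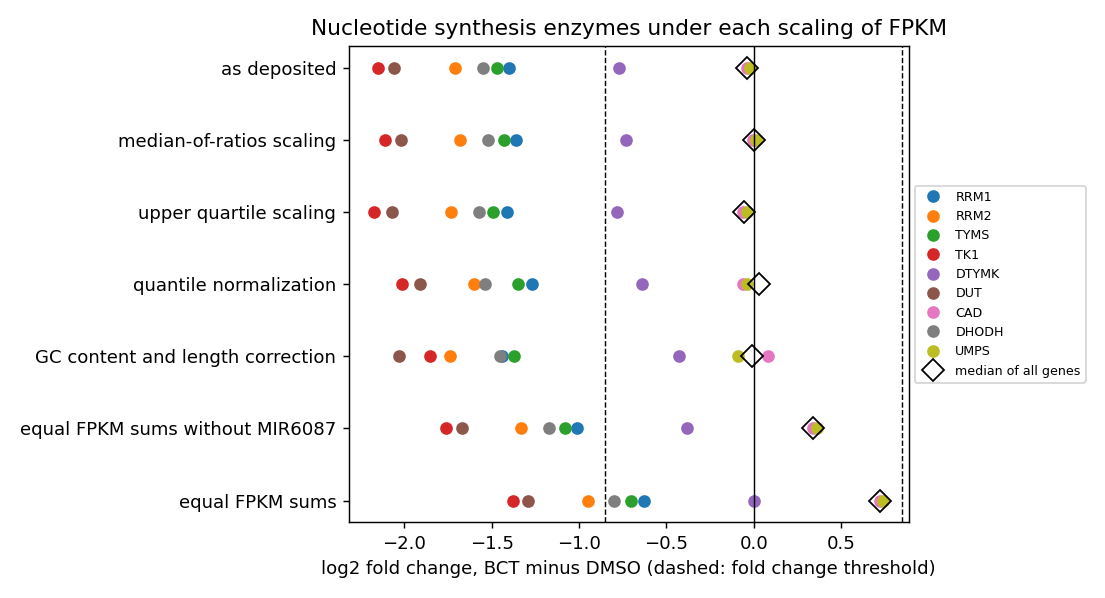
Log2 fold change (BCT minus DMSO) of the 9 enzymes (dots) and the median of all tested genes (diamonds) as deposited, under 5 other scalings and after a correction for GC content and transcript length. The 6 enzymes called lower stay left of the other 3 on every line. Only quantile normalization and the correction could have changed this order, since the other scalings divide each sample by a common factor. The scalings with equal FPKM sums shift all genes to the right, to medians of 0.34 and 0.72.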

How the data were processed

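RNA-seq values of 6 samples, grouped by the agent in their labels, were used. Per the labels and methods, the authors trimmed reads with Trimmomatic (0.38 in the submitters' processing notes), mapped them to hg19 by HISAT2, ran StringTie, and deposited FPKM per gene symbol and sample. The labels also list CASAVA and HTSeq. The gene annotation is not given in the sources used here. Starts were moved from 0-based to 1-based. The 12729 genes averaging 1 FPKM or more were tested on log2(FPKM + 0.1), which understates changes of low genes, in R 4.3.3 by limma 3.58.1 (lmFit and eBayes, trend on, Benjamini-Hochberg adjustment), and ratios with an exact permutation test. The fit was tested on simulated data. FPKM gives only relative depth.

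The enzymes, the lists (written from general knowledge) and the rules were chosen with earlier results of these data known. Named genes are the 9 enzymes, RRM2B, TK2, DCK, CTPS1 and SAMHD1, the 3 called genes of each list with the largest change and groups that do not overlap, genes with an overlapping span, and the 2 genes nearest to each enzyme in profile. Some genes that this rule covers are not reported here. The S-phase list is that of Seurat 5.3.0. GC content and transcript length came from GENCODE (lifted to GRCh37) for 97.4% of tested genes and entered a loess with a span of 0.5. Alternatives covered pseudocount, filter, scaling, variance model, thresholds, leaving out each sample, the replicate block and this correction, which was chosen after seeing the data.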

Additional observations from a re-analysis of the deposited data

How the results depend on the processing

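Across 189 values of the 9 enzymes under the alternatives, 176 kept their direction and their side of the threshold, 3 kept only the direction and 10 turned sign. The alternatives for filter, variance model, thresholds and replicate block leave each fold change as it was, so their values could not turn sign. All turned values belong to DTYMK, CAD or UMPS, none of which was called. Equal FPKM sums gave 9.4e-05 for DTYMK, 0.72 for CAD and 0.74 for UMPS, and without MIR6087 0.34 for CAD and 0.36 for UMPS. With each sample left out in turn, CAD ranged from -0.12 to 0.03 and UMPS from -0.04 to 0.0087. CAD was at 0.08 after correction for GC content and length, 0.03 without DMSO replicate 2 and 0.0036 without BCT replicate 2. UMPS was at 0.01 under median-of-ratios scaling and 0.0087 without DMSO replicate 1, and the cause was not tested. Under equal sums, 3 of the 9 enzymes were called lower (6 as deposited), 9 genes of the other lists lower and 16 higher (27 and 4 as deposited), and 21 S-phase genes lower and 1 higher (33 and 0 as deposited), because that scaling moves the median of all genes. With equal sums without MIR6087, the other lists had 17 lower and 7 higher. Among all genes, the called genes were lower in 56.2% as deposited, 10.6% with equal sums and 26.4% with equal sums without MIR6087. The totals called were 2263 lower and 1764 higher as deposited, 668 and 5609 with equal sums, 1208 and 3369 without MIR6087 and 1392 and 1033 in a test against the fold change threshold. Leaving out each sample, 6 enzymes were called lower each time, and the other lists had 24 to 28 lower and 4 to 5 higher.

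Same-numbered DMSO and BCT samples had deviations that correlated at 0.116, 0.033 and 0.034, and differently numbered ones at -0.115 to 0.074. Not every sample correlated best with its own number. With 3 samples per group, these values cannot tell whether the samples were paired. With the replicate block, 6 enzymes were called lower and 27 and 4 genes of the lists lower and higher, as without it, and the ratio of RRM2B to RRM2 differed by 1.95 (exact sign-flip permutation p = 0.25, the smallest that 3 pairs allow).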

Other observations

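The genes whose profile over the 6 samples was nearest to each enzyme were found by the root mean square difference of log2(FPKM + 0.1) after centring on the mean. This is a description over 6 samples that fall into their treatment groups, so it mostly reads the size of the change and the place of BCT replicate 1. Nearest to DUT was PCNA, the sliding clamp of DNA polymerase, at 0.034, with means of 310.0 FPKM with DMSO and 77.1 FPKM with BCT, followed by UGT8 at 0.041. Nearest to TYMS were CCNA2, the S-phase and G2 cyclin, at 0.023, and the noncoding gene SNHG16 at 0.026. Nearest to TK1 were GPAT2 at 0.056 and CDC6, which licenses replication origins, at 0.062. Nearest to RRM1 were ESCO2, which acetylates cohesin in S phase, at 0.028, and CHAF1A, a chromatin assembly factor subunit, at 0.036. Nearest to RRM2 were TOMM5 at 0.043 and TRAPPC1 at 0.047, which belong to mitochondrial import and vesicle transport. DTYMK was nearest to HSPA1L (0.02) and IMP3 (0.021), and DHODH to RTN3 (0.027) and PARVB (0.03). CAD was nearest to ZFC3H1 and EP400 (0.029 each), and UMPS to DRAM2 (0.013) and RAC1 (0.016). None of the 9 enzymes had another of the 9 among its nearest 2.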
